A study of Danio rerio with 4 samples.

Results

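The genes described here are the zebrafish channel genes whose symbols begin with kcn (potassium channels), scn and a digit (sodium channels) or cacn (calcium channels). The symbol rule took 156 of the 31953 rows of the deposited gene table, and no expression value entered the choice. The 156 rows carried 152 symbols, since cacna2d4a, kcnj11l, kcnj13 and cacna1ha each stood on 2 rows. A symbol rule is wider than the usual name of voltage-gated channel. It also took potassium channels that are not opened by voltage (the inward rectifiers, kcnj, the leak channels, kcnk, and the small-conductance calcium-activated channels, kcnn), accessory subunits that form no pore, and the TARPs, relatives of a calcium channel subunit that serve glutamate receptors.

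All libraries were made from fli1a:GFP and sox10:DsRed double-positive cells sorted from zebrafish at the 36 hpf stage and labelled as pharyngeal arch cells. The nr2f2; nr2f5 double mutants gave 2 libraries, from embryos picked by ocular coloboma, and the labels name no alleles. Another library came from embryos with sox10:Gal4 and UAS:Nr2f5, a transgene pair that places Nr2f5 under sox10-driven Gal4, and 1 from embryos with sox10:Gal4 alone, the control. Both kinds of Gal4 embryo were genotyped from fin biopsies taken at 24 hpf. The study's design names 37 and 84 mutant embryos (18858 and 30655 cells), 84 embryos with UAS:Nr2f5 (56866 cells) and 69 control embryos (86517 cells), so each library is a pool of embryos. The control carries the Gal4 driver and had a biopsy, whereas the mutants are labelled with neither, and mutant genotype, driver and biopsy cannot be told apart in those comparisons. Whether the mutant libraries stand for separate clutches is not stated. A p-value that uses the mutants therefore measures only the spread between these 2 libraries, which may be technical.

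At the assumed scale the libraries held 34787201 and 22677729 reads in the mutants, 10127926 reads in the UAS:Nr2f5 library and 29943433 reads in the control. A single read was worth 0.0288 and 0.0441 RPM in the mutants, 0.0987 RPM in the UAS:Nr2f5 library and 0.0334 RPM in the control, where RPM is the reads of a gene per 1000000 reads and is not divided by gene length. The 15 arch crest markers summed to 473 and 463 RPM in the mutants, 166 RPM in the UAS:Nr2f5 library and 289 RPM in the control, and 1 of them, dlx6a, was at 0 in the UAS:Nr2f5 library. The targeted genes checked the labels in part, since the mutant alleles are not named and may leave message. For nr2f2 the mutants had 38.9 and 30.9 RPM, with 28.1 RPM in the UAS:Nr2f5 library and 41.4 RPM in the control. For nr2f5 the mutants had 12.2 and 14.7 RPM, below the 30.3 RPM of the UAS:Nr2f5 library and the 28.8 RPM of the control, so that no gain from the transgene showed at this row. The sox10:Gal4; UAS:Nr2f5 sample is therefore called the library labelled UAS:Nr2f5. In bulk RNA from a sorted pool, fewer cells of a type and less RNA per cell cannot be told apart.

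Voltage-gated channels open when the membrane depolarizes. Sodium channels (Nav) carry the upstroke of the action potential, potassium channels (Kv) end it, and calcium channels (Cav) turn it into a calcium signal for contraction or transmitter release. Each has a large pore subunit and smaller partners that set its delivery and gating. Skeletal muscle uses its own set, above all the L-type channel built around cacna1s, which senses voltage for the calcium release channel of the muscle store, while neurons use other pores at axons and synapses. Cranial neural crest gives rise to the arch skeleton and also to neurons, glia and pigment cells, and arch mesoderm gives muscle. Some potassium and calcium channels are also known from human facial syndromes and from zebrafish fin and stripe mutants.

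Channel message was scarce in these cells. All 156 rows together summed to 57.96 and 53.53 RPM in the mutants, 128.9 RPM in the library labelled UAS:Nr2f5 and 86.23 RPM in the control, with the mutant sum at 0.646 of the control's and 0.433 of that in the library labelled UAS:Nr2f5. Both mutants lay below the other libraries and close to each other. Of the 156 rows, 24 were at 0 in every library, 106 reached 1 RPM in none and 7 were at 1 RPM or more in every library. Reads were seen for 78 and 56 rows in the mutants, 66 in the library labelled UAS:Nr2f5 and 113 in the control. Thinned to the depth of the library labelled UAS:Nr2f5, the expected numbers were 64.6 and 51.9 rows in the mutants, 66.0 in that library and 95.4 in the control. The control thus showed more of the rows than the other libraries also at equal depth. Of the 11391 genes later tested, the control was expected to show 11380 at that depth. The mutants were expected to show 11240 and 11090, and the library labelled UAS:Nr2f5 11180. Those genes were picked for a mean of at least 1 RPM, so nearly all were seen in every library. Whether the control showed more of all rows beyond the channels was therefore not tested. At 1 RPM or more stood 14 and 16 rows in the mutants, 35 in the library labelled UAS:Nr2f5 and 26 in the control.

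Read by channel type, both mutants were below the other libraries in the sodium channel pores, the calcium channel pores and the Cav beta subunits. They were also below them in the gamma subunits with TARPs, the inward rectifiers and the calcium- or sodium-activated potassium channels. In the two-pore leak rows that the rule took, both mutants were above the other libraries. The rule left out the leak row KCNK4, whose symbol is in capitals. It was at 4.20 and 3.17 RPM in the mutants, 8.39 RPM in the library labelled UAS:Nr2f5 and 2.23 RPM in the control. With KCNK4 added, the mutants would no longer be above the library labelled UAS:Nr2f5. The 7 Nav pore rows summed to 0.517 and 1.37 RPM in the mutants, 6.52 RPM in the library labelled UAS:Nr2f5 and 8.72 RPM in the control. The 18 Cav pore rows summed to 14.1 and 15.8 RPM in the mutants, 50.3 RPM in the library labelled UAS:Nr2f5 and 25.1 RPM in the control. The 8 rows of calcium- or sodium-activated potassium channels summed to 1.15 and 0.794 RPM in the mutants, 10.2 RPM in the library labelled UAS:Nr2f5 and 7.82 RPM in the control. As deposited, the control was the highest library for the sodium pores alone among these classes. Scaling to the arch crest markers turned the log2 ratio of the library labelled UAS:Nr2f5 to the control for these pores from -0.42 to 0.43, or to 0.11 without dlx, hand2 and barx1. The 16 gamma and TARP rows summed to 1.38 and 1.72 RPM in the mutants, 11.0 RPM in the library labelled UAS:Nr2f5 and 3.77 RPM in the control. The two-pore leak channels, which set the resting potential, had another order: their 17 rows summed to 9.11 and 8.73 RPM in the mutants, 5.04 RPM in the library labelled UAS:Nr2f5 and 7.21 RPM in the control, an order that turned round under scaling to the arch crest markers. The 7 alpha2delta rows, subunits that bring calcium channels to the surface, summed to 8.45 and 6.79 RPM in the mutants, 6.42 RPM in the library labelled UAS:Nr2f5 and 7.51 RPM in the control, with the control between the mutants as deposited. The 31 Kv pore rows, also as deposited, had the control between the mutants too, at 10.7 and 7.05 RPM in the mutants, 14.9 RPM in the library labelled UAS:Nr2f5 and 10.3 RPM in the control. The 22 inward rectifiers summed to 4.71 and 3.18 RPM in the mutants, 9.18 RPM in the library labelled UAS:Nr2f5 and 6.48 RPM in the control. The 7 Cav beta rows summed to 3.88 and 4.45 RPM in the mutants, 10.2 RPM in the library labelled UAS:Nr2f5 and 5.51 RPM in the control. Within that class cacnb2a and cacnb3b were, as deposited, higher in both mutants than in the other libraries. Sums carry no test.

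**Figure D1:**
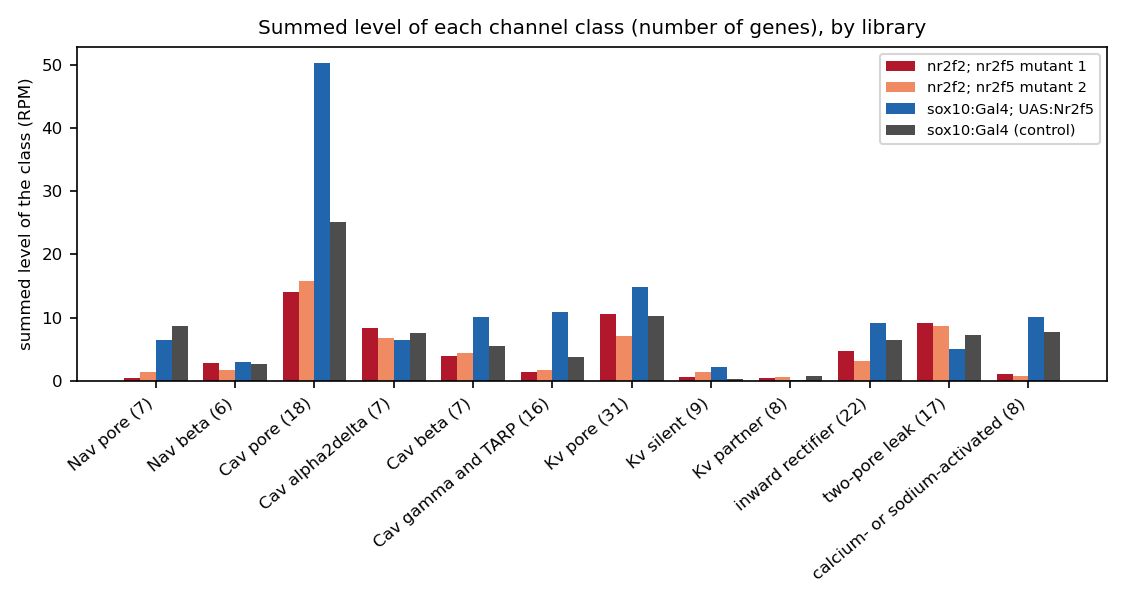
Summed level in RPM (y axis, from 0) of each channel class (x axis, with its number of rows), 1 bar per library. The Cav pore bars reach 50.3 RPM in the library labelled UAS:Nr2f5, and both mutant bars are the lowest for Nav pores and for calcium- or sodium-activated channels and, as deposited, the highest for two-pore leak channels. The leak bars leave out the row KCNK4, with which the mutants would not be above the library labelled UAS:Nr2f5.

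The limma test was run on log2(RPM + 1) for genes whose mean level across all 4 libraries reached 1 RPM. Of the 156 channel rows 24 passed that filter, and the remaining 132 are given by their values alone. Differences are on that scale, which understates the change of low genes. Of the 24, 13 were under 1 RPM in both mutants and so passed through the other libraries, where they were higher in all 13 cases. Counts of lower members below, and the medians with them, are largely fixed by that filter. Just inside it lay cacng1a and cacna1da, with means of 1.055 and 1.01 RPM, and just outside lay cacng6a and kcnj3a, with means of 0.947 and 0.912 RPM.

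Against the library labelled UAS:Nr2f5, the mutants had less message of the muscle calcium channel complex, of neuronal calcium channel pores and of the sodium channel pore gene scn1lab, and more of cacna2d3, cacnb2a and kcnk5b. In that comparison 12 of the 24 tested members fell in the mutants and 3 rose, with a limma adjusted p under 0.05. Of all 11391 genes tested, 8.92% fell and 11.2% rose. All 12 that fell were among the 13 members under 1 RPM in both mutants. Over all genes tested, 824 were under 1 RPM in both mutants, and 633 of these fell, so the 12 are largely fixed by the filter. Against the control, 1 member fell, cacna1aa, where 1.01% of all genes fell, and 0 rose, where 0.0263% did. At an unadjusted limma p under 0.05, 10 members were lower in the mutants than in the control and 2 were higher, where 8.41% and 4.8% of all genes were. By size alone, at least 2-fold on the log2(RPM + 1) scale in both mutants, 10 members were lower than in the control and 0 higher, where 5.36% of all genes were lower and 0.579% higher. By the same rule 12 were lower than in the library labelled UAS:Nr2f5 and 3 higher, where 9.79% and 9.02% of all genes were. The median difference of the 24 was -0.76 for mutants minus control and -1.07 for mutants minus the library labelled UAS:Nr2f5, beside 0.03 and 0.17 over all genes tested. Both comparisons use the same mutant libraries. The call of cacna1aa against the control was lost with a pseudocount of 0.5, with no filter and without a trend in the variance, and a fit without the library labelled UAS:Nr2f5 called 6 members lower instead of 1. With no filter, where 22546 genes were tested, the 15 calls against the library labelled UAS:Nr2f5 were lost too.

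**Figure D2:**
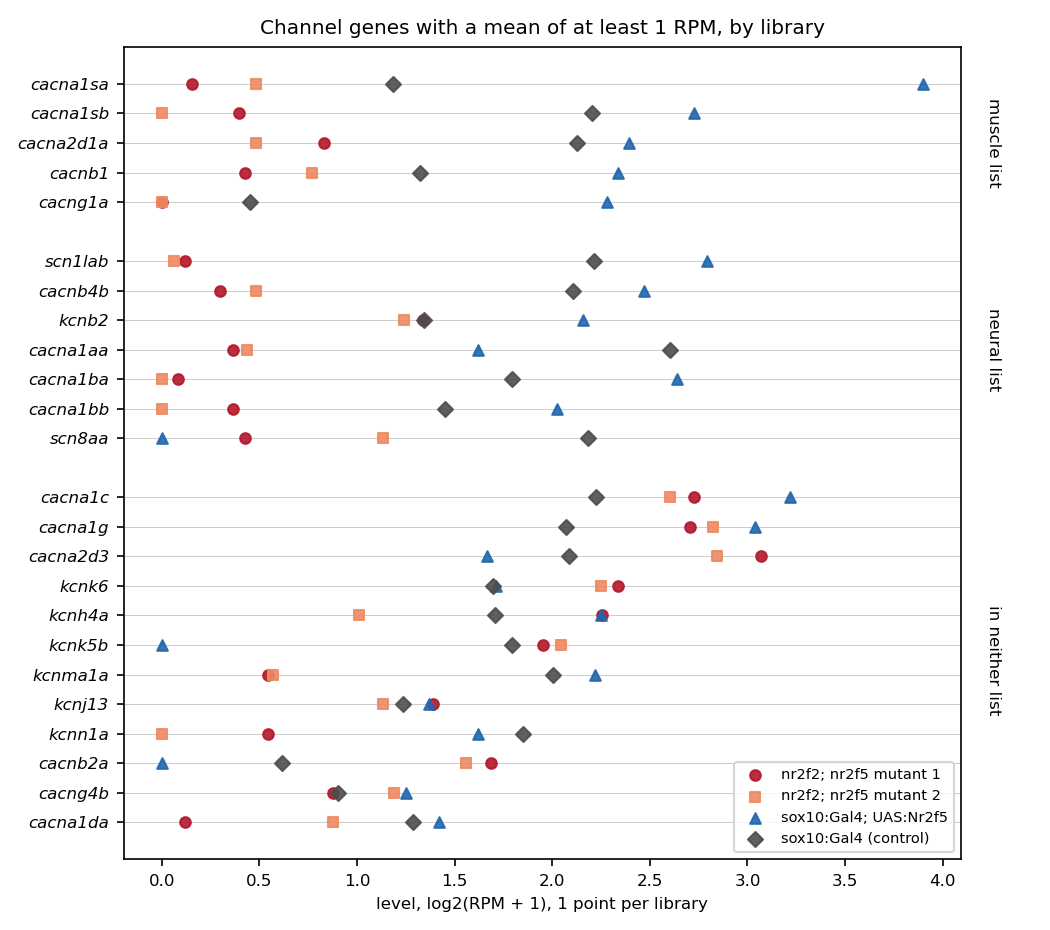
Level of the 24 tested channel genes, as log2(RPM + 1) (x axis), with 1 point per library and genes grouped by list (y axis). In the muscle list both mutant points lie left of the other libraries for all 5 genes, whereas cacna1c, cacna1g and cacna2d3 in the bottom block have both mutants above the control, which for cacna1c turns round under scaling to the arch crest markers.

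Channels of skeletal muscle formed the first group. The list held 10 genes, and together they summed to 1.55 and 1.50 RPM in the mutants, 35.4 RPM in the library labelled UAS:Nr2f5 and 11.4 RPM in the control. Summed, the mutants were at 0.0432 of that in the library labelled UAS:Nr2f5 and 0.134 of the control's. All 5 tested members fell in the mutants relative to the library labelled UAS:Nr2f5, and 0 passed the test against the control, where 2 had an unadjusted limma p under 0.05. All 5 were under 1 RPM in both mutants and passed the filter through the other libraries, so this count and the medians are largely fixed by the filter. Over all genes tested, 8.92% fell relative to the library labelled UAS:Nr2f5, and the medians were 0.17 against it and 0.03 against the control. The median difference of the 5 was -2.28 for mutants minus the library labelled UAS:Nr2f5, or -2.13 with cacng1a, at 0 in both mutants, set to 3 reads in each, and -0.86 for mutants minus control.

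The pore gene cacna1sa was at 0.115 and 0.397 RPM in the mutants, 13.9 RPM in the library labelled UAS:Nr2f5 and 1.27 RPM in the control. It was high in a single library and lowest in both mutants. The difference for mutants minus the library labelled UAS:Nr2f5 was -3.58 ± 0.36 (SE, adjusted p = 0.00593), and for mutants minus control it was -0.86 ± 0.36 (adjusted p = 0.390). Its duplicate cacna1sb, which encodes the same L-type pore, was at 0.316 and 0 RPM in the mutants, 5.63 RPM in the library labelled UAS:Nr2f5 and 3.60 RPM in the control. Here the control was also well above both mutants. The difference was -2.53 for mutants minus the library labelled UAS:Nr2f5 (adjusted p = 0.0108) and -2.01 ± 0.36 for mutants minus control (adjusted p = 0.0786).

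The tested accessory subunits of that channel had the same order of libraries. The beta subunit gene cacnb1, whose loss paralyses zebrafish larvae, was at 0.345 and 0.706 RPM in the mutants, 4.05 RPM in the library labelled UAS:Nr2f5 and 1.50 RPM in the control. It fell in the mutants relative to the library labelled UAS:Nr2f5, by 1.74 (adjusted p = 0.0240), and against the control the difference was -0.72 ± 0.34 (adjusted p = 0.456). The alpha2delta gene cacna2d1a was at 0.776 and 0.397 RPM in the mutants, 4.25 RPM in the library labelled UAS:Nr2f5 and 3.37 RPM in the control, with a drop of 1.74 against the library labelled UAS:Nr2f5 (adjusted p = 0.0276) and a difference of -1.47 from the control (adjusted p = 0.146). The muscle gamma subunit gene cacng1a was at 0 in both mutants, 3.85 RPM in the library labelled UAS:Nr2f5 and 0.367 RPM in the control. It fell against the library labelled UAS:Nr2f5 (adjusted p = 0.00718), and in mutants against control the adjusted p was 0.553. Among the 5 untested members, cacng6a, another gamma gene, had 0 RPM in both mutants, 3.56 RPM in the library labelled UAS:Nr2f5 and 0.234 RPM in the control. The muscle sodium channel pore gene scn4ab was at 0 in both mutants, 0.0987 RPM, a single read, in the library labelled UAS:Nr2f5 and 0.701 RPM in the control, and its duplicate scn4aa was above 0 in the control alone, at 0.0668 RPM. The gamma gene cacng6b was at 0 in the mutants and the library labelled UAS:Nr2f5 and at 0.301 RPM in the control, and cacng1b was at 0 in all. For a gene at 0 the limit from 3 reads is 0.0862 and 0.132 RPM in the mutants, 0.296 RPM in the library labelled UAS:Nr2f5 and 0.100 RPM in the control, for counting error only.

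Genes that work with the muscle channel, listed apart from the members, were lower in the mutants too. The 22 excitation-contraction partners summed to 16.0 and 21.7 RPM in the mutants, 1237 RPM in the library labelled UAS:Nr2f5 and 361 RPM in the control. Of the 13 that were tested, 13 fell against the library labelled UAS:Nr2f5 and 3 against the control, beside 8.92% and 1.01% of all genes tested. Under 1 RPM in both mutants were 10 of the 13, with the same limit. The calcium release channel ryr1b was at 0.575 and 0.309 RPM in the mutants, 62.5 RPM in the library labelled UAS:Nr2f5 and 14.3 RPM in the control, and it fell in both comparisons (-5.47 relative to the library labelled UAS:Nr2f5, adjusted p = 0.000859, and -3.42 relative to the control, adjusted p = 0.0112). The calcium pump atp2a1 was at 11.0 and 16.4 RPM in the mutants, 1020 RPM in the library labelled UAS:Nr2f5 and 297 RPM in the control. The adaptor stac3, which excitation-contraction coupling needs, was at 0.0288 and 0 RPM in the mutants, 4.34 RPM in the library labelled UAS:Nr2f5 and 1.17 RPM in the control. The same libraries were high and low as for the channel pores.

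Muscle markers moved with this group. The 20 markers, among them myosin, actin and troponin genes, summed to 66.5 and 91.5 RPM in the mutants, 6876 RPM in the library labelled UAS:Nr2f5 and 2146 RPM in the control. Of the 19 tested, 18 fell in the mutants against the control and 19 against the library labelled UAS:Nr2f5, beside 1.01% and 8.92% of all genes tested. Of the 19, 2 were under 1 RPM in both mutants. The myogenic factor genes were at or near 0 in the mutants, with myog at 0 in both mutants, 0.198 RPM in the library labelled UAS:Nr2f5 and 0.367 RPM in the control, and myod1 at 0.345 and 0 RPM in the mutants, 5.53 RPM in the library labelled UAS:Nr2f5 and 0.835 RPM in the control. The 8 epidermal markers, keratins among them, summed to 190 and 160 RPM in the mutants, 1713 RPM in the library labelled UAS:Nr2f5 and 634 RPM in the control. Most of the sum in the Gal4 libraries was krt4, at 54.2 and 25.1 RPM in the mutants, 1508 RPM in the library labelled UAS:Nr2f5 and 504 RPM in the control. Most of it in the mutants was krt8, as deposited higher there (131 and 129 RPM) than in the library labelled UAS:Nr2f5 (89.0 RPM) and the control (98.65 RPM). By the mutant mean, 7 of the 8 were lower than in the control. The part of muscle and epidermal cells in the channel differences was not tested.

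**Figure D3:**
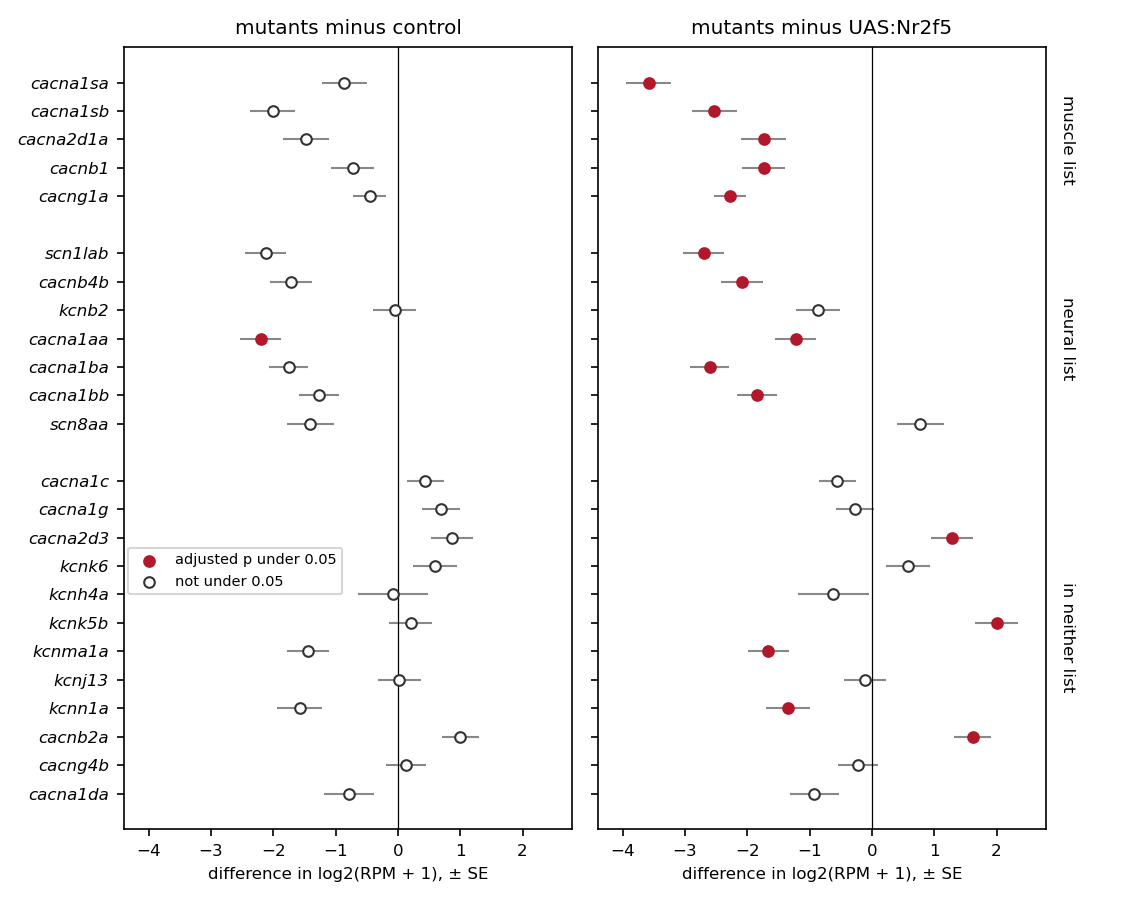
Difference in log2(RPM + 1) for mutants minus control (left) and mutants minus the library labelled UAS:Nr2f5 (right), with its limma SE as bars, for the 24 tested channel genes. Filled points have an adjusted p under 0.05: cacna1aa alone on the left, and on the right 12 genes below 0 and 3 above it.

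Channels of neurons formed the second group. The list had 48 symbols, of which 41 were in the table in lower case, and these summed to 8.74 and 7.06 RPM in the mutants, 32.7 RPM in the library labelled UAS:Nr2f5 and 30.6 RPM in the control. The library labelled UAS:Nr2f5 and the control were close, and the mutants were at 0.242 of the library labelled UAS:Nr2f5 and at 0.258 of the control. Of the 7 tested members, 5 fell in the mutants relative to the library labelled UAS:Nr2f5 and 1 against the control, with median differences of -1.84 and -1.72, beside 8.92% and 1.01% of all genes tested and medians of 0.17 and 0.03. All 5 that fell were under 1 RPM in both mutants and passed the filter through the other libraries, so these counts too are largely fixed by it.

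The only call against the control was cacna1aa, which encodes the P/Q-type calcium channel of nerve terminals. It was at 0.287 and 0.353 RPM in the mutants, 2.07 RPM in the library labelled UAS:Nr2f5 and 5.08 RPM in the control. It fell by 2.20 ± 0.33 against the control (SE, adjusted p = 0.0499) and by 1.22 against the library labelled UAS:Nr2f5 (adjusted p = 0.0491), both close to the threshold. Its call against the library labelled UAS:Nr2f5 was also lost with a pseudocount of 5 and without the control library. The N-type pore gene cacna1ba was at 0.0575 and 0 RPM in the mutants, 5.23 RPM in the library labelled UAS:Nr2f5 and 2.47 RPM in the control, and its duplicate cacna1bb was at 0.287 and 0 RPM in the mutants, 3.06 RPM in the library labelled UAS:Nr2f5 and 1.74 RPM in the control. Both had the order of the muscle pore genes, with the library labelled UAS:Nr2f5 on top. They fell against it by 2.60 and 1.84 (adjusted p = 0.00779 and 0.0176), whereas against the control the differences were -1.76 and -1.27 (adjusted p = 0.0774 and 0.151).

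The sodium channel pore gene scn1lab, whose loss causes seizures in zebrafish larvae, was at 0.0862 and 0.0441 RPM in the mutants, 5.92 RPM in the library labelled UAS:Nr2f5 and 3.64 RPM in the control. In the mutants that was 3 reads and 1 read, and both Gal4 libraries were far above them. It fell by 2.70 against the library labelled UAS:Nr2f5 (adjusted p = 0.00796), and the difference from the control, -2.12 ± 0.33, just missed the threshold (adjusted p = 0.0562). The calcium channel beta gene cacnb4b was at 0.230 and 0.397 RPM in the mutants, 4.54 RPM in the library labelled UAS:Nr2f5 and 3.31 RPM in the control. It too fell against the library labelled UAS:Nr2f5 (-2.08, adjusted p = 0.0153) and missed the threshold against the control (-1.72, adjusted p = 0.0954).

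The sodium channel pore gene scn8aa, needed for the touch response of zebrafish larvae, did not follow the others. It was at 0.345 and 1.19 RPM in the mutants, 0 RPM in the library labelled UAS:Nr2f5 and 3.54 RPM in the control. The lowest library was the one labelled UAS:Nr2f5, and the mutants lay between. The difference was -1.40 ± 0.38 for mutants minus control (adjusted p = 0.176) and 0.78 for mutants minus the library labelled UAS:Nr2f5 (adjusted p = 0.193). Its duplicate scn8ab was at 0.0862 and 0.132 RPM in the mutants, 0.494 RPM in the library labelled UAS:Nr2f5 and 0.768 RPM in the control. The delayed rectifier gene kcnb2 was the one tested Kv pore of the list, at 1.52 and 1.37 RPM in the mutants, 3.46 RPM in the library labelled UAS:Nr2f5 and 1.54 RPM in the control. The difference for mutants minus control was -0.05 on the log2 scale (adjusted p = 0.976).

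Neuron markers moved with the neural list. The 13 markers in the table summed to 29.7 and 22.3 RPM in the mutants, 188 RPM in the library labelled UAS:Nr2f5 and 146 RPM in the control. Of the 12 tested, 10 fell in the mutants relative to the library labelled UAS:Nr2f5 and 2 against the control, beside 8.92% and 1.01% of all genes tested. Under 1 RPM in both mutants were 7 of the 12, with 6 of the 10 that fell among them, so these counts too are in part fixed by the filter. In mutant 2, neurod1, snap25b, stmn1b, stmn2a and vamp2 were at 0, and no other library had a neuron marker at 0. The RNA-binding protein gene elavl3, made in young neurons, was at 5.69 and 5.12 RPM in the mutants, 63.7 RPM in the library labelled UAS:Nr2f5 and 44.0 RPM in the control. Glial markers, 6 in all, summed to 5.58 and 8.29 RPM in the mutants, 31.5 RPM in the library labelled UAS:Nr2f5 and 34.1 RPM in the control. Of these, gfap and plp1a were lower in the mutants, whereas erbb3b was higher, at 2.90 and 6.04 RPM in the mutants, 0.987 RPM in the library labelled UAS:Nr2f5 and 0.668 RPM in the control, with no limma call. The part of neuron and glial cells in the levels of the neural channels was not tested. A list of 28 other genes of excitable cells, sodium pump subunits, ankyrins and HCN channels among them, summed to 144 and 132 RPM in the mutants, 198 RPM in the library labelled UAS:Nr2f5 and 188 RPM in the control. Of its 17 tested genes, 7 fell against the library labelled UAS:Nr2f5 and 2 against the control, the pump genes atp1a2a and atp1a3a. Over all genes tested, 8.92% and 1.01% did. Of the 7, 3 were under 1 RPM in both mutants and passed the filter through the other libraries.

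**Figure D4:**
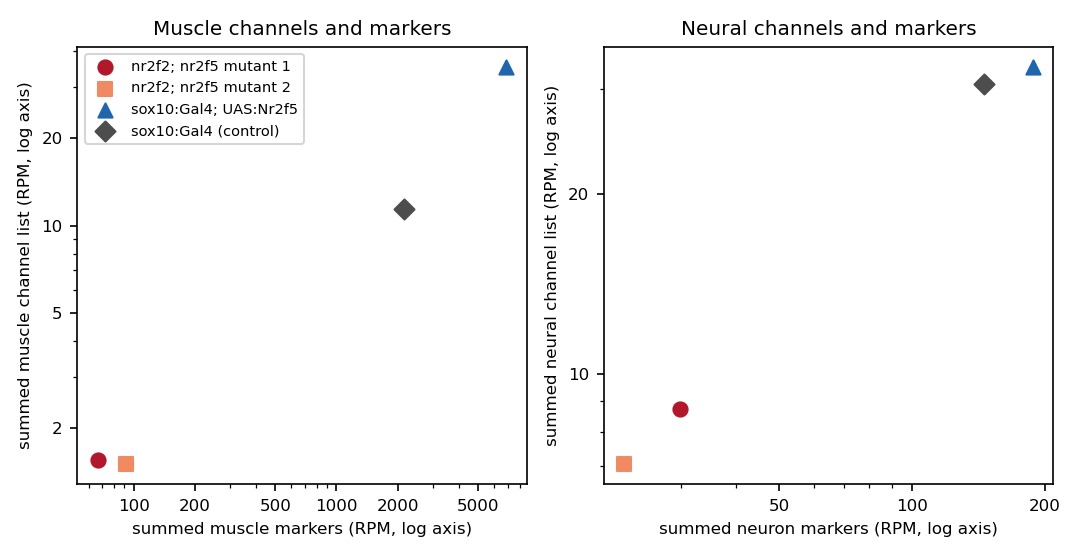
Summed level of the muscle channel list against the muscle markers (left) and of the neural channel list against the neuron markers (right), in RPM on log axes, with 1 point per library. In both panels the mutants stand at the low end of both axes and the library labelled UAS:Nr2f5 at the high end, with 6876 RPM of muscle markers.

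As deposited, the channels in neither list were in sum about as abundant in the mutants as in the control. These 105 rows summed to 47.7 and 45.0 RPM in the mutants, 60.8 RPM in the library labelled UAS:Nr2f5 and 44.3 RPM in the control. The mutants were thus just above the control. Scaling to the arch crest markers, which shifts all genes, would place them below it. That scaling divides levels by 1.425 and 1.487 in the mutants and by 0.923 in the control. Of the 12 tested, 0 passed the limma test against the control in either direction, with 2 lower and 2 higher at an unadjusted p under 0.05. Over all genes tested, 1.01% fell and 0.0263% rose against the control. Against the library labelled UAS:Nr2f5, 2 of the 12 fell and 3 rose, where 8.92% and 11.2% of all genes tested did. The 2 that fell were under 1 RPM in both mutants and passed the filter through the other libraries. The median difference of the 12 was 0.17 for mutants minus control and -0.25 for mutants minus the library labelled UAS:Nr2f5, beside 0.03 and 0.17 over all genes tested. Over all 156 rows, 9 tested genes were at 1 RPM or more in both mutants, and 8 of them were in neither list, kcnb2 being the exception.

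The T-type calcium channel pore gene cacna1g was at 5.52 and 6.09 RPM in the mutants, 7.21 RPM in the library labelled UAS:Nr2f5 and 3.21 RPM in the control. The L-type pore gene cacna1c, the calcium channel of heart and smooth muscle, was at 5.61 and 5.07 RPM in the mutants, 8.29 RPM in the library labelled UAS:Nr2f5 and 3.67 RPM in the control. For both, as deposited, the control was the lowest library and the mutants were in the middle, unlike the other tested calcium pores. The differences for mutants minus control were 0.69 ± 0.30 and 0.44 ± 0.30 (adjusted p = 0.412 and 0.626), and for mutants minus the library labelled UAS:Nr2f5 they were -0.27 and -0.55 (adjusted p = 0.547 and 0.229). The remaining tested calcium pore, cacna1da, which hair cells of the ear use, was at 0.0862 and 0.838 RPM in the mutants, 1.68 RPM in the library labelled UAS:Nr2f5 and 1.44 RPM in the control, with no call.

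Both accessory subunit genes called in this group were higher in the mutants. The alpha2delta gene cacna2d3 was at 7.39 and 6.17 RPM in the mutants, 2.17 RPM in the library labelled UAS:Nr2f5 and 3.24 RPM in the control. Each mutant was, as deposited, above both other groups. It rose by 1.29 against the library labelled UAS:Nr2f5 (adjusted p = 0.0448), a call lost under the median-ratio scaling (adjusted p = 0.0672). The call was also lost under scaling to the arch crest markers and without the control library. Against the control the difference was 0.87 ± 0.33 (adjusted p = 0.345). The beta subunit gene cacnb2a was at 2.21 and 1.94 RPM in the mutants, 0 RPM in the library labelled UAS:Nr2f5 and 0.534 RPM in the control. Again both mutants were on top. It rose against the library labelled UAS:Nr2f5 (adjusted p = 0.0202), and the difference from the control was 1.00 ± 0.30 (adjusted p = 0.210). Under 1 RPM in both Gal4 libraries, cacnb2a passed the filter through the mutants, so that call is in part fixed by the filter. Another beta gene, cacnb3b, singled out after its values were seen, was untested at 1.01 and 1.41 RPM in the mutants, 0.395 RPM in the library labelled UAS:Nr2f5 and 0.0334 RPM in the control. The TARP gene cacng4b was at 0.834 and 1.28 RPM in the mutants, 1.38 RPM in the library labelled UAS:Nr2f5 and 0.868 RPM in the control, which lay between the mutants.

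Potassium channels of this group differed among themselves. The leak channel gene kcnk5b, in which an activating change overgrows the zebrafish fin, was at 2.875 and 3.13 RPM in the mutants, 0 RPM in the library labelled UAS:Nr2f5 and 2.47 RPM in the control. Mutants and control were close and the library labelled UAS:Nr2f5 stood apart. The gene rose in the mutants against that library (adjusted p = 0.0174), and against the control the difference was 0.20 (adjusted p = 0.872). Its duplicate kcnk5a was at 1.84 and 0.882 RPM in the mutants, 0 RPM in the library labelled UAS:Nr2f5 and 0.501 RPM in the control. The leak channel gene kcnk6 was at 4.05 and 3.75 RPM in the mutants, 2.27 RPM in the library labelled UAS:Nr2f5 and 2.24 RPM in the control, higher in both mutants (not so against the library labelled UAS:Nr2f5 under crest scaling) but with no call (adjusted p = 0.282 against the library labelled UAS:Nr2f5 and 0.567 against the control). The inward rectifier gene kcnj13, known from zebrafish stripe mutants, was at 1.62 and 1.19 RPM in the mutants, 1.58 RPM in the library labelled UAS:Nr2f5 and 1.36 RPM in the control, at about 1 level throughout. A second kcnj13 row was at 0.450 and 0 RPM in the mutants, 0 RPM in the library labelled UAS:Nr2f5 and 0.0468 RPM in the control. The voltage-gated kcnh4a was at 3.77 and 1.01 RPM in the mutants, 3.75 RPM in the library labelled UAS:Nr2f5 and 2.27 RPM in the control. Its mutant values spanned those of the control, and it had the largest SE of the tested members, 0.57. For kcnh4a and kcnj13 some values were not whole multiples of a read, so reads were shared out among rows there.

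The calcium-activated channels went the other way. The large-conductance kcnma1a, which opens with both calcium and voltage, was at 0.460 and 0.485 RPM in the mutants, 3.65 RPM in the library labelled UAS:Nr2f5 and 3.01 RPM in the control. The small-conductance kcnn1a was at 0.460 and 0 RPM in the mutants, 2.07 RPM in the library labelled UAS:Nr2f5 and 2.60 RPM in the control. Both Gal4 libraries were well above both mutants. The genes fell in the mutants relative to the library labelled UAS:Nr2f5, by 1.66 and 1.35 (adjusted p = 0.0250 and 0.0472). The call of kcnn1a was lost with a pseudocount of 0.5, without a variance trend and without the control library. Against the control the differences were -1.44 and -1.58 (adjusted p = 0.125 and 0.119). Another gene of the class, kcnn3, was at 0 in both mutants, 1.58 RPM in the library labelled UAS:Nr2f5 and 1.74 RPM in the control, and was untested.

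The untested potassium and sodium channel rows were low, and 26 untested rows of any class reached 1 RPM in some library, 13 of them highest in the library labelled UAS:Nr2f5. The M-current gene kcnq5b was at 1.75 and 0.617 RPM in the mutants, 0 RPM in the library labelled UAS:Nr2f5 and 1.24 RPM in the control. The G-protein-gated inward rectifier kcnj3a was at 0.345 and 0 RPM in the mutants, 2.57 RPM in the library labelled UAS:Nr2f5 and 0.735 RPM in the control. Of the silent Kv subunits, which form channels only with other Kv subunits, kcng1 was at 0 in both mutants, 1.38 RPM in the library labelled UAS:Nr2f5 and 0.0668 RPM in the control. These genes differ in which library was lowest. The 8 Kv partner rows, cytoplasmic or membrane subunits without a pore, stayed below 1 RPM in sum, with 0.460 and 0.617 RPM in the mutants, 0.0987 RPM in the library labelled UAS:Nr2f5 and 0.736 RPM in the control. The 6 sodium channel beta rows summed to 2.875 and 1.68 RPM in the mutants, 2.96 RPM in the library labelled UAS:Nr2f5 and 2.67 RPM in the control, but the sum hid opposite members. The beta genes scn3b and scn4bb were at 1.52 and 0.882 RPM and at 1.01 and 0.750 RPM in the mutants, at 0 in the library labelled UAS:Nr2f5 and at 0.367 and 0.635 RPM in the control. In contrast scn4ba was at 0.0862 and 0 RPM in the mutants, 2.77 RPM in the library labelled UAS:Nr2f5 and 0.134 RPM in the control.

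A list of channels known from human facial syndromes or zebrafish fin and stripe mutants had no common direction. Of 17 symbols, 12 were in the table in lower case, on 13 rows, and these rows summed to 13.0 and 10.3 RPM in the mutants, 16.2 RPM in the library labelled UAS:Nr2f5 and 13.5 RPM in the control. Rows in capitals were left out of these sums, among them KCNK4 and KCNJ6, whose names match listed genes. KCNK4 was at 4.20 and 3.17 RPM in the mutants, 8.39 RPM in the library labelled UAS:Nr2f5 and 2.23 RPM in the control. KCNJ6 was below 1 RPM in every library. Of the 4 tested, cacna1c, kcnj13, kcnk5b and kcnma1a, kcnma1a fell and kcnk5b rose in the mutants relative to the library labelled UAS:Nr2f5, and 0 passed the limma test against the control (adjusted p from 0.125 to 0.989). The rest were untested. Of these, kcnn3 was at 0 in both mutants, 1.58 RPM in the library labelled UAS:Nr2f5 and 1.74 RPM in the control. The others stayed below 1 RPM in every library. The inward rectifier kcnj2a was at 0.949 and 0.353 RPM in the mutants, 0 RPM in the library labelled UAS:Nr2f5 and 0.601 RPM in the control, and kcnj8, a subunit of ATP-sensitive channels, was at 0.316 and 0 RPM in the mutants, 0.592 RPM in the library labelled UAS:Nr2f5 and 0.434 RPM in the control. The voltage-gated kcnh1a had 0.604 and 0.0882 RPM in the mutants and was at 0 in the library labelled UAS:Nr2f5 and the control. The fin gene kcnh2a was above 0 in mutant 1 alone, at 0.0862 RPM. The leak channel kcnk9 was above 0 in the library labelled UAS:Nr2f5 alone, at 0.494 RPM, and kcnj2b was at 0 in every library.

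The library labelled UAS:Nr2f5 and the control, with 1 library each, were compared by size and counting error alone. The limma fit could set them against each other only with the spread of the mutant pair, and that contrast is not used here. Of the 24 tested members, muscle genes stood highest over the control, and a sodium and a leak channel gene stood lowest. By the 2-fold rule 3 of the 24 members were higher, cacna1sa, cacng1a and cacnb1, where 6.79% of all genes tested were, and 2 were lower, scn8aa and kcnk5b, where 9.17% were. The 3 higher became 5 under median-ratio scaling and 12 or 11 under scaling to the arch crest markers, which raises every ratio of these 2 libraries. The median difference of the 24 was 0.36, beside -0.11 over all genes tested. As deposited, the whole channel set summed to 1.49 times the control's level, the muscle list to 3.10 times and the neural list to 1.07 times, while muscle markers were at 3.20 times and neuron markers at 1.29 times the control's level. Ratios below are of RPM, with exact 95% intervals for counting error only, from rounded reads. Some untested rows with few reads in the control had higher ratios than any tested member, among them kcnd1 at 38.4 (5.77 to 1633) with 1 read there and scn4ba at 20.7 (7.24 to 81.2) with 4, of which kcnd1 was chosen after its values were seen.

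For cacna1sa, 141 reads in the library labelled UAS:Nr2f5 and 38 in the control gave a ratio of 10.97 (7.62 to 16.1). Its duplicate cacna1sb had a ratio of 1.56 (1.11 to 2.17), so the duplicates differed with intervals that did not overlap. For the gamma genes, cacng1a had 39 reads in the library labelled UAS:Nr2f5 and 11 in the control, a ratio of 10.5 (5.27 to 22.7), and cacng6a had 36 reads in the library labelled UAS:Nr2f5 and 7 in the control, a ratio of 15.2 (6.67 to 40.5). The ratio was 2.69 (1.72 to 4.21) for cacnb1 and 1.26 (0.860 to 1.82) for cacna2d1a, so members of 1 channel complex spanned a wide range. The muscle sodium pore scn4ab had 1 read in the library labelled UAS:Nr2f5 and 21 in the control, a ratio of 0.141 (0.00340 to 0.875), opposite to the muscle calcium channel.

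The pores cacna1c, cacna1g, cacna1ba and kcnb2 had ratios from 2.12 to 2.26, each with an interval above 1. For cacna1aa the ratio was 0.409 (0.246 to 0.647), below 1, while its duplicate cacna1ab, at 0 and 0.132 RPM in the mutants, was at 1.28 RPM in the library labelled UAS:Nr2f5 and 0.902 RPM in the control. The ratios of kcnk6, 1.02 (0.603 to 1.65), kcnma1a, 1.22 (0.806 to 1.80), and kcnn1a, 0.796 (0.467 to 1.30), had intervals that included 1. Of the tested members, 3 were listed at 0 in the library labelled UAS:Nr2f5. By the exact interval, scn8aa, with 106 reads in the control, was at least 9.55-fold lower, kcnk5b, with 74 reads, at least 6.62-fold lower and cacnb2a, with 16 reads, at least 1.30-fold lower. Set against 3 reads in place of 0, with no error on the control's reads, these folds were 11.95, 8.34 and 1.80. Of the 7349 genes at 2 RPM or more in each of the other 3 libraries, 30 were at 0 in the library labelled UAS:Nr2f5, and kcnk5b was one of them. That library also had the lowest depth, whose part in these zeros was not tested.

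**Figure D5:**
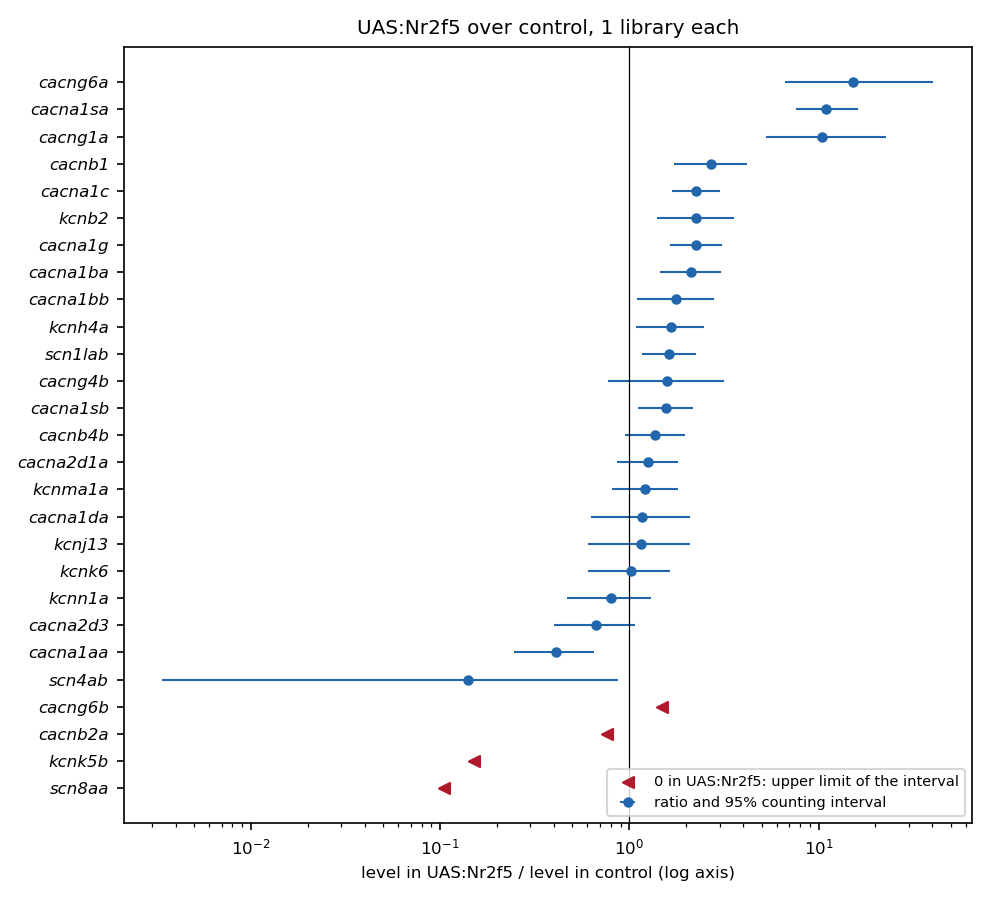
Ratio of the level in the library labelled UAS:Nr2f5 to that in the control (x axis, log scale), with its exact 95% counting interval, for the tested members and the genes of the muscle list with more than 3 reads in the control (y axis, highest ratio on top). Left-pointing triangles mark genes at 0 in the library labelled UAS:Nr2f5, at the upper limit of the interval. The muscle genes cacng6a, cacna1sa and cacng1a lie above 10. Among the points furthest left are the triangles of scn8aa and kcnk5b and the point of scn4ab, at 0.141 with a wide interval.

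Many zebrafish channel genes are kept as a and b duplicates, and reads of near-identical copies can be split between them or shared out. The table held 43 such pairs, and in 2, cacna1ba with cacna1bb and cacna1sa with cacna1sb, both genes were tested. In the other pairs 1 copy at most passed the filter. With cacnb2a at 2.21 and 1.94 RPM in the mutants, 0 RPM in the library labelled UAS:Nr2f5 and 0.534 RPM in the control, its duplicate cacnb2b had the reverse order, at 0 in both mutants, 1.18 RPM in the library labelled UAS:Nr2f5 and 0.0334 RPM in the control. The pair scn4ba and scn4bb was opposite in the same way. In contrast kcnk5a and kcnk5b were both at 0 in the library labelled UAS:Nr2f5 and above 0 elsewhere, and cacng6a and cacng6b had 3.56 and 0 RPM in it. Counting is not stated to use strand, so reads of antisense neighbours would not be told apart.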

How the data were processed

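RNA of sorted arch cells was amplified with the SMARTer kit, and Kapa Hyper prep libraries were sequenced as paired ends on a NextSeq 500, per the labels' protocols. TopHat2, Partek and GRCz10 are named by the submitters' processing notes, and versions, roles and annotation are not given in the sources used here. The deposited table calls its values TPM. They were treated as RPM, as deposited by the authors, since low values of all genes in a library are multiples of 1 step (88.4% to 94.0% whole, within 0.02 read, for values worth 0.5 to 1000 reads). The scale of 1000000 is assumed, and the columns sum to 14.8% to 15.8% of it. Of the member values above 0.5 read, 74 of 78 and 54 of 56 were whole in the mutants, 65 of 66 in the library labelled UAS:Nr2f5 and 107 of 113 in the control.

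The plan had assumed TPM, and the same test suits RPM, also a normalised value. limma 3.58.1 in R 4.3.3 (lmFit, contrasts, eBayes with a trend) was fitted to log2(RPM + 1) of 11391 genes, with 1 mean per group and p-values adjusted by Benjamini and Hochberg over all of them. The fit has 1 residual degree of freedom, so each lone library is taken to vary as the mutant pair does. The fit was also run on simulated data in which every library had the spread of the mutant pair, so that run cannot check this assumption. Counts of channel genes were taken at an adjusted p of 0.05 and at a 2-fold difference. Ratios of 2 libraries have exact Clopper-Pearson 95% intervals on rounded reads (scipy 1.17.1).

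Genes and lists were chosen with earlier results of these data known. Genes are named where they passed a test, were among the 10 furthest apart between the Gal4 libraries or the 3 highest of a class, were on the muscle or facial and fin list or the 6 highest of the neural list, or were the duplicate of such a gene. Planned sequence features of the proteins were not analysed here.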

Additional observations from a re-analysis of the deposited data

How the results depend on the processing

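The number of channel genes called lower in the mutants than in the control (1) was 0 with a pseudocount of 0.5, with no filter, with a filter of 5 RPM and without a variance trend, 6 without the library labelled UAS:Nr2f5, and 10 or 13 when scaled to all arch crest markers or to those other than dlx, hand2 and barx1 (chosen after seeing the data). Against the library labelled UAS:Nr2f5, 12 lower and 3 higher became 0 and 0 with no filter or a filter of 5 RPM, and 19 and 2 under either crest scaling, where cacna2d3 lost its call. The filter of 5 RPM kept only cacna1c and cacna1g, with means of 5.661 and 5.505 RPM. It removed every member called or counted at the main settings, so the drops to 0 under it, here and below, were fixed in advance. With no filter 22546 genes were tested and 0 of all genes passed in either comparison. By the 2-fold rule the 10 lower than control became 0 with a pseudocount of 5 and with the 5 RPM filter and ranged from 10 to 12 without either mutant replicate, and 0 higher became 1 with a pseudocount of 0.5 and 0 to 1 without a replicate. With a pseudocount of 5, a 2-fold difference needs at least 5 RPM in the higher library. The highest control level of a tested member was 5.076 RPM, for cacna1aa, with mutants at 0.287 and 0.353 RPM. No member could therefore be 2-fold lower than the control at that setting. The 12 lower than the library labelled UAS:Nr2f5 became 3 with a pseudocount of 5, 24 with no filter and 0 with the 5 RPM filter, and were 13 without either replicate; the 3 higher became 0 with a pseudocount of 5 and with the 5 RPM filter and 3 to 4 without a replicate. For the library labelled UAS:Nr2f5 over the control, 2 lower became 4 (pseudocount 0.5), 0 (pseudocount 5), 5 (no filter) and 0 (5 RPM), and 3 higher became 5, 1, 11 and 0 in that order of settings, 5 under median-ratio scaling, 12 or 11 under the crest scalings, and 5 with symbols in capitals included.

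The crest scalings moved the median of all genes from 0.03 to -0.49 and -0.60 for mutants minus control and from 0.17 to -1.11 and -0.94 for mutants minus the library labelled UAS:Nr2f5. The log2 ratio of summed levels of the leak channels turned from 0.31 to -0.35 and -0.48 for mutants over control. For mutants minus control, cacna1c (0.44) became -0.094 and -0.20, cacng4b (0.13) -0.18 and -0.25, kcnk5b (0.20) -0.26 and -0.36, and kcnj13 (0.02) -0.33 and -0.41, or -0.0017 under median-ratio scaling. For mutants minus the library labelled UAS:Nr2f5, kcnk6 (0.58) became -0.56 and -0.41. Among differences of named genes, 403 values kept direction and call, 37 gained a call, 25 lost one, 27 moved and 11 reversed direction. The cause was not tested.

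No paired analysis was possible because both Gal4 groups have 1 library each and share no numbered pairs with the mutants. Depth limits the library labelled UAS:Nr2f5 most, where 3 reads are 0.296 RPM.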

Other observations

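The table also holds 32 channel rows with symbols in capitals, which the lower-case rule does not take. They summed to 6.50 and 4.81 RPM in the mutants, 22.1 RPM in the library labelled UAS:Nr2f5 and 7.01 RPM in the control. Of the 32, 2 passed the filter on low values. The leak channel row KCNK4 was at 4.20 and 3.17 RPM in the mutants, 8.39 RPM in the library labelled UAS:Nr2f5 and 2.23 RPM in the control, with no limma call. The Kv pore row KCNA3 was at 0.661 and 0 RPM in the mutants, 3.36 RPM in the library labelled UAS:Nr2f5 and 0.802 RPM in the control, and it fell against the library labelled UAS:Nr2f5 (-1.76, limma adjusted p = 0.0306). For both rows that library was the highest.

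Markers of other cell types not set beside a channel group above had the following levels. Pigment markers summed to 6.32 and 7.23 RPM in the mutants, 27.2 RPM in the library labelled UAS:Nr2f5 and 7.82 RPM in the control. Endothelial markers summed to 7.33 and 11.8 RPM in the mutants, 30.8 RPM in the library labelled UAS:Nr2f5 and 13.1 RPM in the control. Red blood cell markers summed to 129 and 59.3 RPM in the mutants, 414 RPM in the library labelled UAS:Nr2f5 and 515 RPM in the control.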
